A study of Rattus norvegicus with 18 samples.

Results

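The genes that encode the proteins of the ribosome were followed in cultured rat bone marrow MSCs without and with miR-337, starved of serum or given mechanical or serum stimulation. Members were the rows of the deposited RNA-seq tables that the authors' KEGG column assigned to the ribosome pathway, 167 of 32623 gene rows, and the same rows were found in the table of each genotype. The cytosolic ribosome was represented by 86 named rows. Of these, 76 rows covered 73 of the 79 core proteins listed for the mammalian ribosome (Rps10, Rps27a and Rps4x stood on 2 rows each), and 10 rows were paralogs. The mitochondrial ribosome was represented by 42 rows. A further 33 cytosolic and 3 mitochondrial rows had no ribosomal protein symbol and are called unnamed copies below. Whether each is a copy of a named gene was not checked. The remaining rows were 2 ribosomal RNA genes that stayed at or below 0.414 FPKM in every library, and Rsl24d1, a factor in the assembly of the large subunit. Core proteins without a member row under their own symbol (Rps14, Rps19, Rps26, Rpl22, Rpl37a and Rpl38) were not analysed by name here.

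The cells came from bone marrow of 2-month-old Sprague-Dawley (SD) rats, either miR-337-/- (KO) or wild type (WT), and were used at passage 3. All groups shared serum starvation of 8 h. They then received 10% cyclic mechanical stretch (CMS) or serum (FBS) for 24 h according to the labels (the study's methods give a shorter treatment), or stayed starved (SSt), with 3 libraries in each of the 6 groups. Total RNA was sequenced. The labels do not say whether the replicates were separate rats, cultures or wells, so p-values measure the spread between these libraries, and genotype cannot be told apart from donor rat, culture or library preparation.

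A ribosome is built from a small and a large subunit, each an RNA core clad in proteins. The cell holds a pair of distinct kinds: cytosolic ribosomes, which translate nuclear mRNAs, and mitochondrial ribosomes, which translate the few mRNAs of the mitochondrial genome. All of these proteins are nuclear-encoded. mRNAs of cytosolic ribosomal proteins typically begin with a C followed by a run of pyrimidines, the terminal oligopyrimidine (TOP) tract, through which mTORC1 and LARP1 control their stability and translation in response to serum, nutrients and PI3K-Akt signaling. Mitochondrial ribosomal protein mRNAs lack this shared start, and their genes are known as targets of transcription factors of mitochondrial biogenesis.

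This difference was visible in RefSeq start sites (assembly GRCr8), which are shown for members whose values are given below. The 30-base windows run 15 bases to each side of the annotated start on the gene's strand, and capitals mark the first stretch of a C followed by at least 6 pyrimidines.
Rpl10: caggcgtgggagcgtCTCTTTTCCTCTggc
Rplp0: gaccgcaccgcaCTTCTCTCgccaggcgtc
Rpl29: gggCCTTTCTCTTTCTCTTCCggtcccagg
Rpl5: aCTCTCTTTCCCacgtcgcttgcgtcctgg
Rps27: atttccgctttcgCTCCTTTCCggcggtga
Rps27l: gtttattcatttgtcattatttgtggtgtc
Mrpl12: ttgcgagacaaaggcatgccgcggagggct
Mrps10: ggcacggctgtgatcccggaagcgatcgtg
mrpl9: gggtCCTTCTTCCgtctgtcctcttcgtgg
Mrpl18: gttgCTTTTCCCgcagttaacatggctgcg
The windows lie at chrX:157205835-157205864 (Rpl10, plus strand), chr12:46718376-46718405 (Rplp0, minus), chr8:115947628-115947657 (Rpl29, plus), chr14:1995211-1995240 (Rpl5, minus), chr2:177964592-177964621 (Rps27, minus), chr8:76443643-76443672 (Rps27l, plus), chr10:106256731-106256760 (Mrpl12, plus), chr9:21122439-21122468 (Mrps10, minus), chr2:184771052-184771081 (mrpl9, plus) and chr1:50384937-50384966 (Mrpl18, plus). Such a run stood in the window of 37 of the 57 core cytosolic genes matched by symbol (64.9%), against 5 of 35 mitochondrial genes (14.3%) and 14.7% of all 27457 promoters in the table. Rps27, a core small subunit protein, carried a run, whereas its paralog Rps27l did not. A run in the window need not lie in the mRNA, since those shown for Rpl5, mrpl9 and Mrpl18 end before the annotated start. Over the whole 300-base promoter and on both strands, the 7 letters CCGGAAG, the core of ETS-family sites, were found in 18 core cytosolic (31.6%) and 11 mitochondrial promoters (31.4%), against 9.63% of all promoters, and the Mrps10 window above holds them. AAGATGG, the core of YY1 sites, was found in 17.5%, 17.1% and 7.77% of the same 3 sets. Matches of letters do not show that a factor binds there.

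Each library held 56083000 to 71847969 counted fragments. The row of Mir337 itself was at 0 counts in all 18 libraries, so it checks neither genotype. The cultures were labelled MSCs, but Lepr was at or below 0.07 FPKM in every library. The 10 MSC markers summed to 1257.5 to 1306 FPKM in KO CMS, 1298 to 1468 in KO FBS and 1537 to 1587 in KO SSt. In WT they summed to 914 to 943 FPKM in CMS, 994 to 1019.5 in FBS and 1429 to 1451 in SSt. The 16 macrophage and blood markers summed to 5004 to 5405 FPKM in KO CMS, 5198 to 6086 in KO FBS, 2741 to 2868 in KO SSt, 7115 to 7448 in WT CMS, 7340 to 7719 in WT FBS and 4421 to 4530 in WT SSt. In sum, MSC markers were thus lower and macrophage and blood markers higher in stimulated than in starved libraries. MSC markers were higher and macrophage and blood markers lower in KO than in WT in each condition. Endothelial markers summed to at most 2.23 FPKM. In bulk RNA, fewer cells of a type and less RNA per cell cannot be told apart. Replicate 1 of KO FBS stood apart from its 2 partners over all genes (chi-square per gene 132 and 169, against 31.0 between the partners), and replicate 1 of KO CMS did so less (62.9 and 77.0, against 27.1). Without KO CMS replicate 1, 28 cytosolic and 25 mitochondrial members passed for KO CMS over KO SSt, and 31 and 10 for KO CMS over WT CMS. Values without KO FBS replicate 1 are given where they matter.

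The cytosolic ribosomal protein mRNAs were among the most abundant in these cells. Over the 18 libraries, the core members had a median level of 430 FPKM (fragment counts scaled by the authors to gene length and library depth), and the mitochondrial members 18.5 FPKM. The highest core members were Rpl41 (mean 1538 FPKM), the smallest ribosomal protein, the stalk proteins Rplp0 (1450) and Rplp1 (1030), and Rpsa (1004), which also serves as a laminin receptor. The lowest were Rps29 (21.3), Rps13 (55.4) and Rpl39 (77.9). Among mitochondrial members, Mrpl17 (118 FPKM), Mrpl33 (71.9), Mrps7 (46.8) and Mrpl23 (46.6) were highest, and Mrpl1 (3.06) was lowest.

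Summed over the 86 named rows, cytosolic ribosomal protein mRNAs took the largest share of all FPKM in starved KO cells and the smallest in starved WT cells. They made up 8.11%, 7.84% and 7.94% of all FPKM in KO SSt, against 6.43%, 6.37% and 6.23% in WT SSt, a ratio of 1.26 ± 0.029 (SD, n = 3 libraries each). In stimulated cells the genotypes came close: the share was 6.996%, 6.84% and 6.90% in KO CMS, against 6.57%, 6.82% and 6.87% in WT CMS, and 6.77%, 7.36% and 7.35% in KO FBS, against 6.87%, 6.81% and 6.79% in WT FBS. By this measure the KO and WT ranges overlapped in CMS and in FBS and did not overlap in SSt. As a share of counts, every KO library exceeded every WT library in CMS (2.79% to 2.84%, against 2.62% to 2.78%) and in FBS (2.73% to 2.997%, against 2.68% to 2.71%) too, and the same held for summed FPKM. Stimulation thus went with a lower share in KO (CMS over SSt 0.868 ± 0.018, FBS over SSt 0.899 ± 0.045) and a higher one in WT (1.06 ± 0.031 and 1.076 ± 0.019).

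The mitochondrial sum followed another course in WT. It was 0.250%, 0.247% and 0.249% of all FPKM in KO SSt, against 0.209%, 0.206% and 0.201% in WT SSt (ratio 1.21 ± 0.024). In KO CMS it was 0.187%, 0.185% and 0.184%, against 0.190%, 0.198% and 0.195% in WT CMS. In KO FBS it was 0.185%, 0.204% and 0.199%, against 0.192%, 0.199% and 0.193% in WT FBS. The mitochondrial share of FPKM was lower after stimulation in both genotypes, by a ratio of 0.745 ± 0.0075 (CMS) and 0.789 ± 0.04 (FBS) in KO and of 0.945 ± 0.027 and 0.948 ± 0.024 in WT. As a share of counts the WT ratios were 0.974 ± 0.03 and 0.964 ± 0.031, and stimulated and starved WT libraries overlapped.

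**Figure D1:**
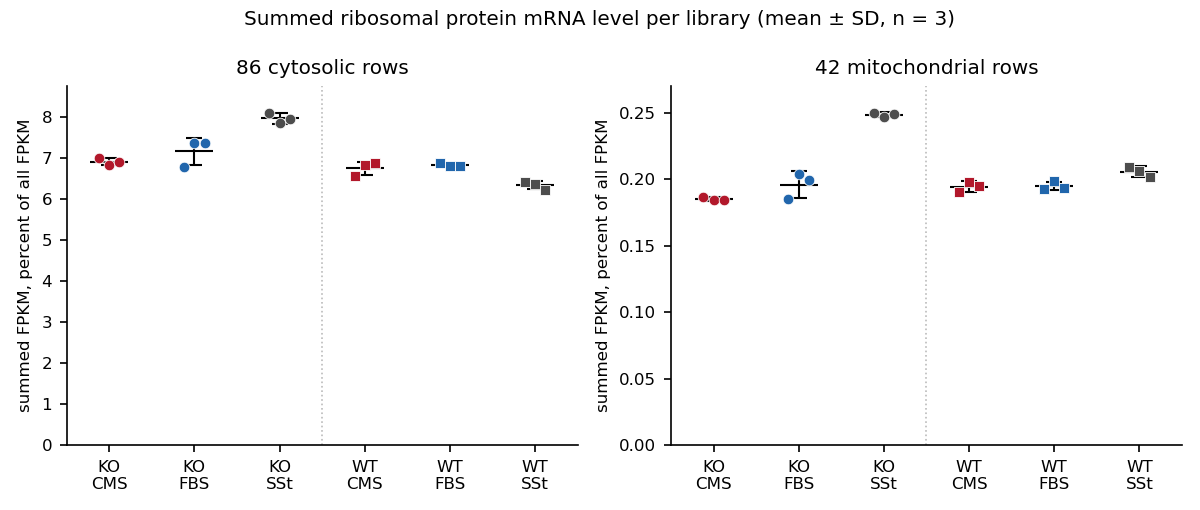
Summed level of the cytosolic (left) and mitochondrial (right) ribosomal protein genes in percent of all FPKM, by group; points are libraries, lines group means with bars of 1 SD (n = 3). KO SSt stands highest in both panels, between 7.84% and 8.11% and between 0.247% and 0.250%.

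Which ribosomal protein genes differed between the genotypes was asked first in starved cells. In KO SSt cells, 68 of the 85 cytosolic members tested were higher than in WT SSt cells and none was lower (edgeR quasi-likelihood test, Benjamini-Hochberg adjusted p below 0.05), where 47.4% of all 13317 genes passed the test (24.2% higher, 23.2% lower). The median log2 difference was 0.28 for the cytosolic members and 0.02 for all genes. Both subunits took part, with 27 of 32 core small subunit rows and 37 of 44 core large subunit rows higher. Rpl3l, a muscle paralog of Rpl3, reached at most 0.0952 FPKM and was not tested. Changes were modest throughout: among the named cytosolic and mitochondrial members that passed in any of the 11 comparisons made, the largest were 0.98 (Mrps10) and 0.97 (Rpl39l) in size on the log2 scale.

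The largest cytosolic difference that passed was in Rps27l (ENSRNOG00000050473), a paralog of Rps27 that p53 induces in human and mouse cells. It had 96.1, 102 and 99.6 FPKM in KO SSt, against 52.1, 54.0 and 53.4 FPKM in WT SSt, so that the groups stood far apart (log2 difference 0.83, SE 0.062, adjusted p 7.9e-08). Rps27 had 729.7, 696 and 687 FPKM in KO SSt, against 618, 635 and 638 FPKM in WT SSt, and did not pass (0.09, adjusted p 0.11). Rps6, the classic substrate of S6 kinase, had 402, 401 and 392 FPKM in KO SSt, against 294, 306 and 278 FPKM in WT SSt (0.37, SE 0.042, adjusted p 5.3e-06). For Rps27l and Rps6, and also for Rps27, each KO SSt library exceeded each WT SSt library. The share of all genes with such a separation was not counted.

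Among large subunit genes, Rpl3, a core protein near the peptidyl transferase centre, had 262, 260 and 263 FPKM in KO SSt, against 195, 193 and 187 FPKM in WT SSt (log2 difference 0.38). The partners of the 5S ribonucleoprotein, which bind MDM2 when ribosome assembly fails, were higher too: Rpl5 by 0.34 and Rpl11 by 0.23 on the log2 scale. Rpl5 had 565, 576 and 575 FPKM in KO SSt, against 425, 435 and 431 FPKM in WT SSt. Rpl29 (0.46), Rpl36a (0.47), Rpl41 (0.33) and the stalk protein Rplp1 (0.24) rose likewise. Rpl10, a late-assembling protein of the large subunit whose gene is X-linked, had 792, 785 and 797 FPKM in KO SSt, against 703, 733 and 765 FPKM in WT SSt, a log2 difference of 0.04 that did not pass the test.

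**Figure D2:**
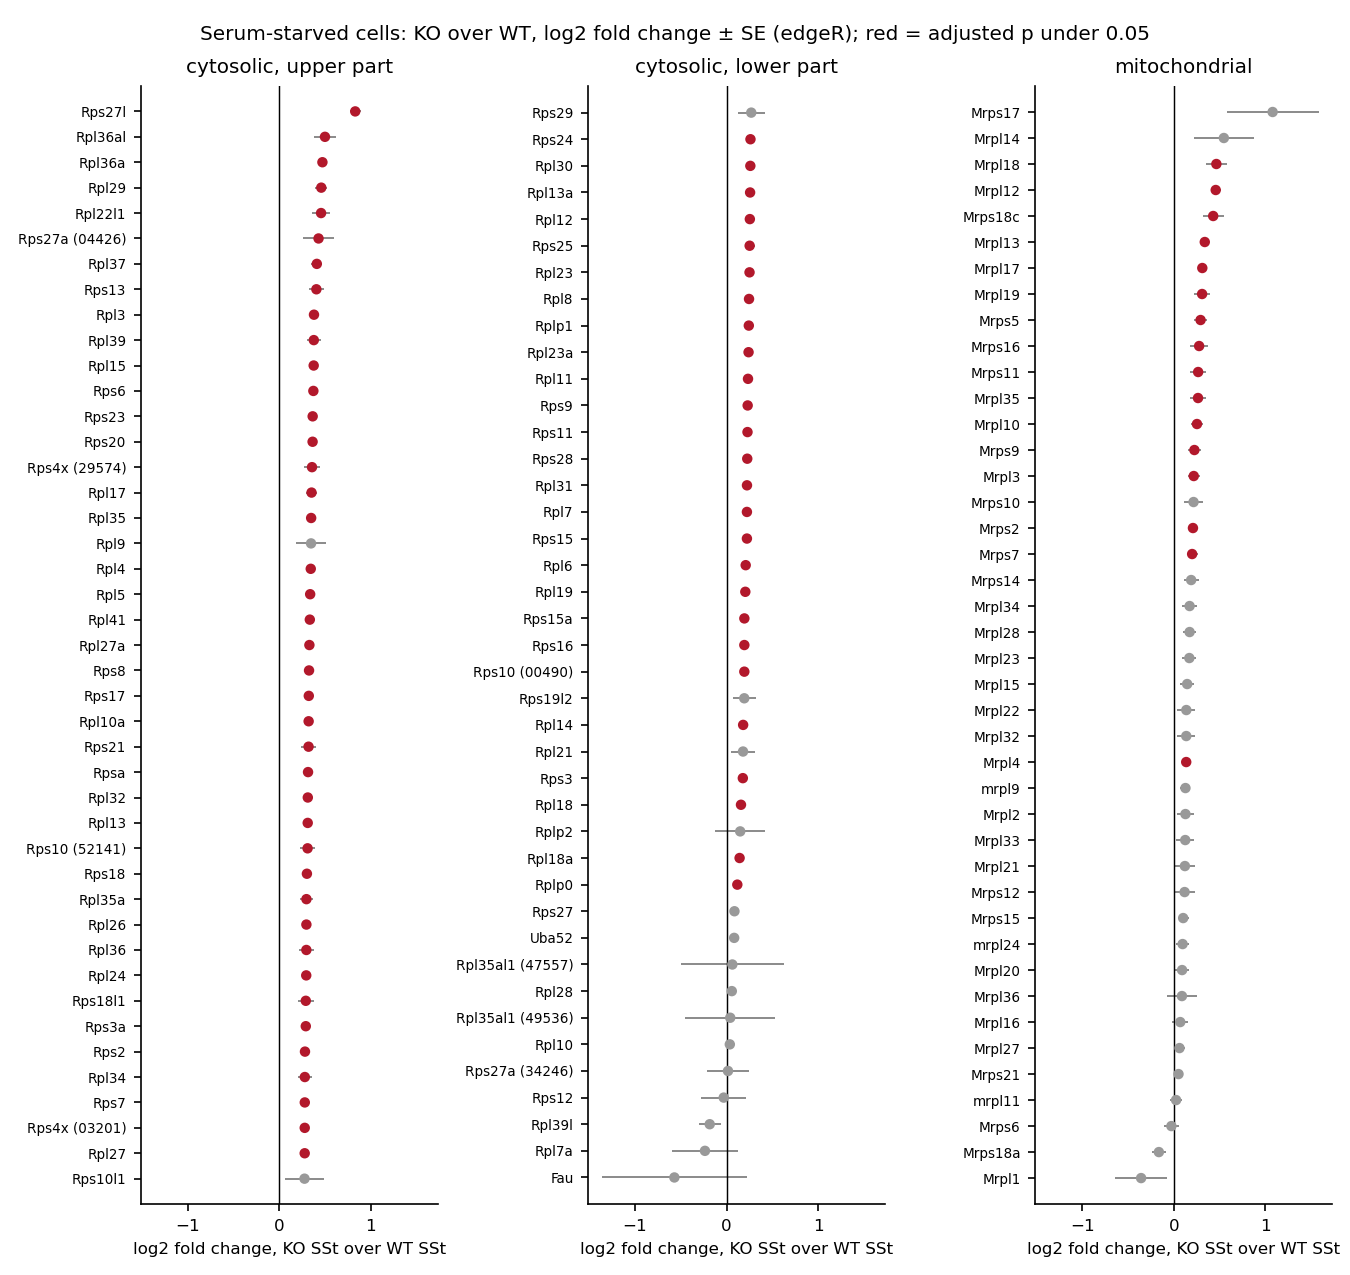
Log2 difference between KO SSt and WT SSt for cytosolic and mitochondrial members tested, with bars of 1 SE; red points passed the test and grey points did not. All red points lie above 0, and most mitochondrial members are grey.

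Of the 42 mitochondrial members, 16 were higher in KO SSt than in WT SSt and none was lower, where 24.2% of all genes were higher and 23.2% lower, with a median log2 difference of 0.17. Mrpl12, which also binds the mitochondrial RNA polymerase, had 36.6, 36.9 and 34.9 FPKM in KO SSt, against 25.7, 25.9 and 23.3 FPKM in WT SSt (0.46, SE 0.055, adjusted p 8.9e-06). Mrpl18 (0.47), Mrps18c (0.43), Mrpl13 (0.34) and Mrpl17 (0.31) passed as well. Mrpl17, the most abundant mitochondrial member, had 158, 158 and 156 FPKM in KO SSt, against 123, 123 and 116 FPKM in WT SSt.

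The 6 proliferation markers moved with this contrast: 5 of 6 were higher in KO SSt (median log2 difference 0.74), with a sum of 386 to 421 FPKM in KO SSt, against 242 to 249 FPKM in WT SSt. Of 15 macrophage and blood markers tested, 3 were higher and 9 lower in KO SSt. Their part in the result was not tested. Scaling to library totals in place of TMM factors gave 25 mitochondrial calls in place of 16, all higher, and the share of all genes called under it was not counted.

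After stimulation, the genotypes differed in fewer cytosolic members and by less. In CMS, 32 of 85 cytosolic members were higher and 1 lower in KO than in WT, beside 39.7% of all genes (18.7% higher, 21% lower), with a median log2 difference of 0.10 against -0.01 for all genes. In FBS, 42 were higher and 1 lower, beside 25.7% of all genes (13.5% higher, 12.3% lower), with a median of 0.12 against 0.00. There were 22 cytosolic members higher in KO in all 3 conditions, among them Rplp0, Rplp1, Rpl41, Rps20 and Rpsa. The share of all genes with this pattern was not counted. Rplp0 (ENSRNOG00000001148), the base of the ribosomal stalk, had 1512, 1574 and 1553 FPKM in KO CMS, against 1334, 1376 and 1344 FPKM in WT CMS (log2 difference 0.26, SE 0.03, adjusted p 1.1e-05), and 1479, 1513 and 1557 FPKM in KO FBS, against 1382, 1366 and 1330 FPKM in WT FBS (0.19, adjusted p 0.00033). Rps20 had 593, 588 and 587 FPKM in KO CMS, against 501, 524 and 518 FPKM in WT CMS (0.26). Rps27l had 90.8, 102 and 94.6 FPKM in KO FBS, against 80.6, 78.4 and 77.7 FPKM in WT FBS (0.31), a smaller gap than in SSt.

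The member lower in KO in both stimulated conditions was Rpl39l (ENSRNOG00000032300), a paralog of Rpl39 known in mice from the testis. It had 9.62, 8.78 and 7.24 FPKM in KO CMS, against 16.4, 12.8 and 15.9 FPKM in WT CMS (log2 difference -0.75, SE 0.12, adjusted p 0.0002), and 7.83, 9.47 and 10.2 FPKM in KO FBS, against 15.02, 13.7 and 14.5 FPKM in WT FBS (-0.62, adjusted p 0.0017). All KO values were below all WT values in both conditions. In SSt it had 18.4, 17.5 and 18.3 FPKM in KO, against 18.6, 19.8 and 20.1 FPKM in WT, and did not pass the test.

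Few mitochondrial members differed between stimulated KO and WT cells: 3 were higher and 4 lower in CMS, and 2 were higher and 2 lower in FBS, below the shares of all genes. Mrpl33, a small protein of the large subunit, had 69.8, 83.2 and 70.5 FPKM in KO FBS, against 57.3, 57.0 and 56.5 FPKM in WT FBS (0.42, adjusted p 0.0059). mrpl24 was higher in KO CMS (0.30) and Mrps15 lower (-0.23).

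These counts depended on scaling and on single libraries. With library totals, 11 cytosolic members were higher and 1 lower in CMS, 23 higher and 1 lower in FBS, and 1 mitochondrial member was higher and 8 lower in CMS. The matching shares of all genes were not counted. Without WT CMS replicate 1, 18 cytosolic and 4 mitochondrial members passed in CMS, and 4 mitochondrial members also without WT CMS replicate 3 or KO CMS replicate 2. Without WT FBS replicate 3, 25 cytosolic members passed in FBS, without KO FBS replicate 2, 26, and without KO FBS replicate 1, 46.

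**Figure D3:**
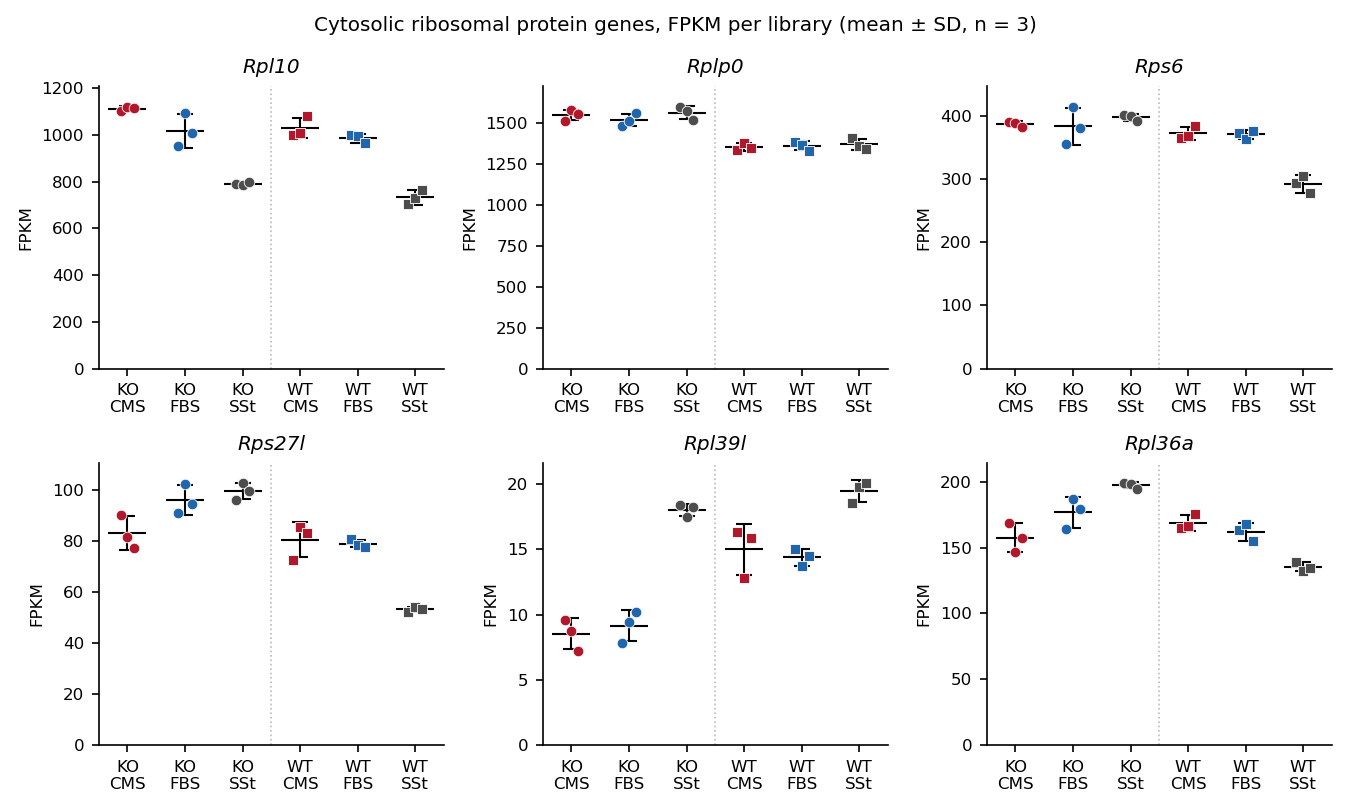
FPKM of 6 cytosolic members by group, linear axes from 0; points are libraries, lines group means with bars of 1 SD (n = 3). Rpl10 is higher in CMS and FBS than in SSt in both genotypes, Rps6 and Rps27l are lowest in WT SSt (278 to 306 and 52.1 to 54.0 FPKM), and Rpl39l is lowest in KO CMS and KO FBS.

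How the ribosomal protein genes responded to stimulation differed with genotype. In KO, 3 cytosolic members were higher and 28 lower in CMS than in SSt, beside 61.5% of all 12888 genes (30.8% higher, 30.7% lower), with a median log2 change of -0.09 against 0.00 for all genes. In FBS, 3 were higher and 30 lower than in SSt, beside 59.8% of all genes (30.3% higher, 29.5% lower), with a median of -0.10 against 0.02. In WT the balance lay the other way. There, 38 cytosolic members were higher and 8 lower in CMS than in SSt, beside 66.8% of all 12916 genes (34.6% higher, 32.3% lower), with a median of 0.08 against 0.02. In FBS, 29 were higher and 9 lower than in SSt, beside 66.4% of all genes (33.7% higher, 32.7% lower), with a median of 0.07 against 0.01. Members lower in KO CMS and members higher in WT FBS were thus about as frequent as among all genes. In each of these comparisons the calls in the opposite direction were much rarer than among all genes. The CMS and FBS comparisons of a genotype share their SSt libraries. In WT CMS, higher members made up 24 of 44 large subunit rows (2 lower) and 12 of 32 small subunit rows (5 lower).

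Rpl10 (ENSRNOG00000056765) rose with stimulation in both genotypes. It had 1103, 1121 and 1117 FPKM in KO CMS and 954, 1096 and 1007 FPKM in KO FBS, against 792, 785 and 797 FPKM in KO SSt. It had 1000, 1010 and 1082 FPKM in WT CMS and 1000, 995 and 966 FPKM in WT FBS, against 703, 733 and 765 FPKM in WT SSt. Each stimulated library exceeded each starved one, and the log2 changes were 0.60 (SE 0.047, adjusted p 7.4e-06) for KO CMS, 0.42 for KO FBS, 0.47 for WT CMS and 0.39 for WT FBS.

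Rps20, a protein of the small subunit head, fell with stimulation in both genotypes. It had 593, 588 and 587 FPKM in KO CMS and 592, 635 and 606 FPKM in KO FBS, against 769, 767 and 761 FPKM in KO SSt, and 501, 524 and 518 FPKM in WT CMS and 495, 521 and 488 FPKM in WT FBS, against 571, 560 and 567 FPKM in WT SSt. The log2 change was -0.27 in both KO comparisons, -0.16 in WT CMS and -0.21 in WT FBS. Rpl39l fell in the same 4 comparisons, by -0.97 in KO CMS and -0.92 in KO FBS, close to 2-fold, and by -0.40 in WT CMS and -0.47 in WT FBS, and the difference between genotypes passed for CMS (-0.56, adjusted p 0.015) and not for FBS.

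Other members rose in WT and did not pass the test in KO. In KO, Rps6 had 391, 390 and 384 FPKM in CMS and 356, 415 and 382 FPKM in FBS, against 402, 401 and 392 FPKM in SSt, ranges that overlapped for FBS. In WT it had 366, 369 and 385 FPKM in CMS and 373, 364 and 377 FPKM in FBS, against 294, 306 and 278 FPKM in SSt (log2 changes 0.32 and 0.31). Rps27l had 90.3, 81.5 and 77.3 FPKM in KO CMS and 90.8, 102 and 94.6 FPKM in KO FBS, against 96.1, 102 and 99.6 FPKM in KO SSt. In WT it had 72.6, 85.6 and 83.1 FPKM in CMS and 80.6, 78.4 and 77.7 FPKM in FBS, against 52.1, 54.0 and 53.4 FPKM in SSt (0.57 and 0.53). The stimulated levels of Rps27l thus stood above the starved ones in WT. In KO, each CMS library lay below each SSt library, by a smaller gap that did not pass, and the FBS range overlapped that of SSt.

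Rpl36a, a large subunit protein that contacts the tRNA exit site, went opposite ways after stretch. It had 169, 147 and 158 FPKM in KO CMS, against 199, 199 and 195 FPKM in KO SSt (log2 change -0.22, adjusted p 0.0091), and 165, 166 and 176 FPKM in WT CMS, against 139, 133 and 135 FPKM in WT SSt (0.29). Of the cytosolic members, 7 were lower in KO CMS than in KO SSt and higher in WT CMS than in WT SSt (among them Rpl15, Rpl35, Rpl36a and Rps23), and 4 did so in FBS (Rpl11, Rpl27a, Rpl29 and Rpl35). None was higher in KO and lower in WT, and the shares of all genes with these patterns were not counted.

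Whether the response differed between genotypes was tested directly as the KO response minus the WT response. For CMS, the difference was negative in 35 cytosolic members and positive in 1, beside 44.8% of all 13317 genes (21.6% positive, 23.2% negative), with a median of -0.16 against -0.05 for all genes. For FBS, it was negative in 30 and positive in none, beside 35.7% of all genes (18.5% positive, 17.2% negative), with a median of -0.14 against -0.01. The difference for CMS was -0.72 for Rps27l (SE 0.087, adjusted p 1.2e-05), -0.50 for Rpl36a (adjusted p 4.3e-05), -0.43 for Rpl29, -0.38 for Rpl3, -0.35 for Rpl35 and -0.28 for Rpl5. The difference for FBS was -0.51 for Rps27l (adjusted p 0.00036), -0.38 for Rpl29, -0.31 for Rpl36a and -0.29 for Rps6. Since both genotypes' responses are taken from SSt, these differences hold the SSt contrast given above.

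**Figure D4:**
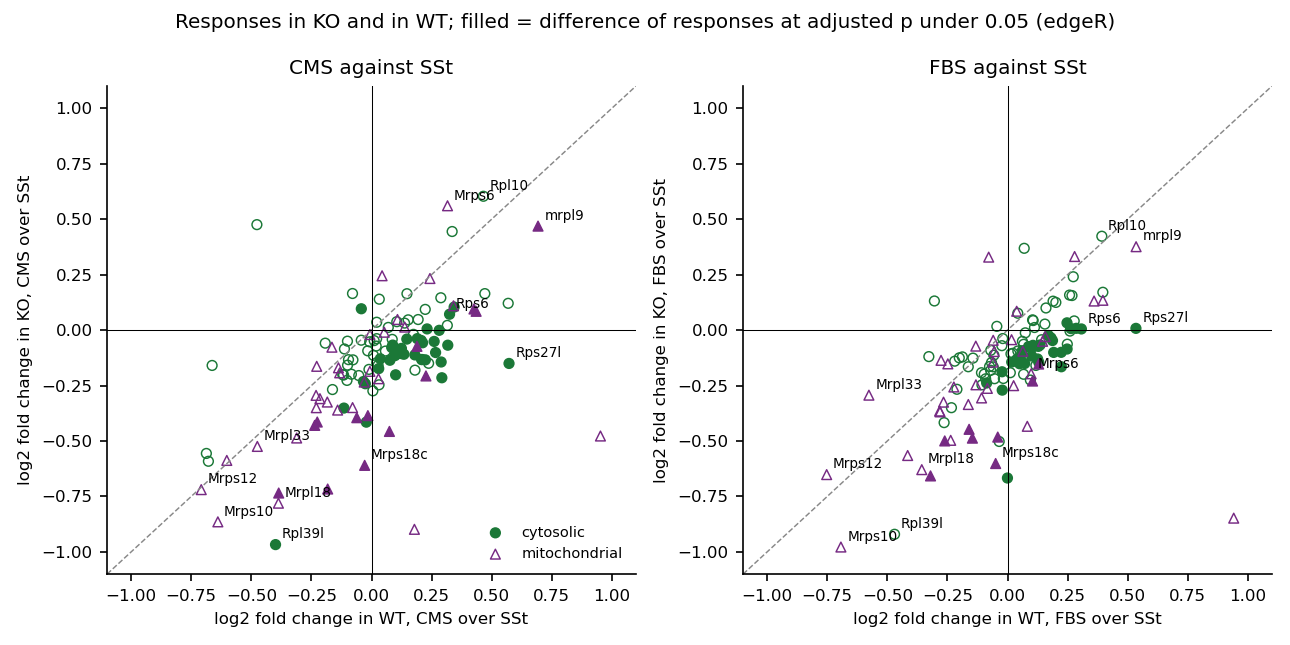
Log2 change from SSt in KO (vertical) against that in WT (horizontal) for each cytosolic and mitochondrial member, CMS left and FBS right; filled points passed the test of the difference between genotypes, and the diagonal marks equal responses. All filled points but Rplp0 for CMS lie below the diagonal, with Rps27l (-0.72 and -0.51) among the farthest.

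All 6 proliferation markers were lower in stimulated than in starved cells (median log2 changes -3.57 in KO CMS, -2.15 in KO FBS, -1.15 in WT CMS and -1 in WT FBS), so that the libraries labelled SSt held the highest levels, and the difference between genotypes passed for 6 of 6 in CMS and in FBS. In the stimulated libraries the macrophage and blood markers were higher in sum and the MSC markers lower, as given above. The part of any of these marker sets in the ribosomal result was not tested. Without KO SSt replicate 1, 20 cytosolic members passed for KO CMS and 21 for KO FBS, without KO CMS replicate 2, 20 for KO CMS, and without KO FBS replicate 1, 23 for KO FBS and 25 for the FBS difference between genotypes. With library totals, 1 cytosolic member was higher and 51 lower in KO CMS, 40 were higher and 5 lower in WT FBS, and the difference between genotypes was negative in 63 for CMS and in 56 for FBS. Under this scaling the median of all genes was itself negative for KO CMS and for both differences, as given below. The shares of all genes called with library totals were not counted, so these counts are not read as a stronger result.

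Mitochondrial members that passed were more often lower than higher after stimulation. In KO, 3 were higher and 22 lower in CMS and 1 was higher and 20 lower in FBS, with medians of -0.30 and -0.25, where 30.7% and 29.5% of all genes were lower. In WT, 6 were higher and 14 lower in CMS and 5 were higher and 15 lower in FBS, with medians of -0.05 and -0.08, where 32.3% and 32.7% of all genes were lower and 34.6% and 33.7% higher. The WT members were thus lower about as often as all genes, and higher in 14.3% and 11.9%. The members lower in both genotypes numbered 12 for CMS and 13 for FBS, and the matching shares of all genes were not counted. Of the 15 small subunit members, 10 were lower and 1 higher in KO CMS, and of the 27 large subunit members, 12 were lower and 2 higher.

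Mrps12, a protein of the decoding centre, had 20.7, 25.1 and 24.7 FPKM in KO CMS and 27.8, 23.3 and 25.4 FPKM in KO FBS, against 44.2, 41.2 and 40.1 FPKM in KO SSt. It had 22.9, 21.9 and 23.6 FPKM in WT CMS and 18.2, 25.5 and 23.1 FPKM in WT FBS, against 36.4, 38.6 and 34.8 FPKM in WT SSt. Every stimulated library was below every starved one, and the log2 changes were -0.72, -0.65, -0.71 and -0.75 in KO CMS, KO FBS, WT CMS and WT FBS (adjusted p 0.00035, 0.00071, 0.00021 and 0.00014). Mrps10 fell by 0.86 and 0.98 on the log2 scale in KO CMS and KO FBS, and by 0.64 and 0.69 in WT CMS and WT FBS.

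Mrpl12 fell further in KO than in WT. It had 19.9, 20.3 and 20.1 FPKM in KO CMS, against 36.6, 36.9 and 34.9 FPKM in KO SSt (-0.73), and 18.4, 19.8 and 20.1 FPKM in WT CMS, against 25.7, 25.9 and 23.3 FPKM in WT SSt (-0.39). The stimulated levels of both genotypes met near 20 FPKM, and the difference between the responses was -0.34 (SE 0.078, adjusted p 0.0022). Mrps18c fell in KO alone: it had 7.60, 9.18 and 8.15 FPKM in KO CMS, against 14.7, 12.9 and 13.6 FPKM in KO SSt (-0.61), and 8.71, 10.4 and 9.79 FPKM in WT CMS, against 9.58, 10.7 and 8.65 FPKM in WT SSt. Its difference between genotypes was -0.58 for CMS (adjusted p 0.0089) and -0.54 for FBS (adjusted p 0.017). In all, the difference was negative in 13 mitochondrial members for CMS and in 8 for FBS and positive in none. Of all genes, 23.2% and 17.2% were negative and 21.6% and 18.5% positive. Negative members were thus about as frequent as among all genes for FBS, and positive ones were absent. The medians were -0.19 and -0.16, against -0.05 and -0.01 for all genes. Mrps5 (-0.53), Mrps11 (-0.53) and Mrpl13 (-0.43) were among those that passed for CMS.

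The 5 mitochondrial genes with a pyrimidine run in the start-site window went different ways. In all of them but Mrps9 the run ended before the annotated start. Mrpl18 fell in all 4 comparisons (-0.78 in KO CMS, -0.63 in KO FBS, -0.39 in WT CMS and -0.36 in WT FBS), Mrps9 rose in WT (0.43 in CMS and 0.40 in FBS) and did not pass in KO (0.08 and 0.13), and Mrpl23 and Mrpl36 passed in none. mrpl9 (ENSRNOG00000020869) rose in all 4. It had 20.2, 20.0 and 19.7 FPKM in KO CMS and 18.4, 20.0 and 19.9 FPKM in KO FBS, against 14.7, 15.4 and 16.7 FPKM in KO SSt. It had 22.2, 22.2 and 22.6 FPKM in WT CMS and 18.5, 20.8 and 21.2 FPKM in WT FBS, against 13.4, 14.0 and 13.4 FPKM in WT SSt. The log2 changes were 0.47 and 0.38 in KO and 0.69 and 0.53 in WT.

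**Figure D5:**
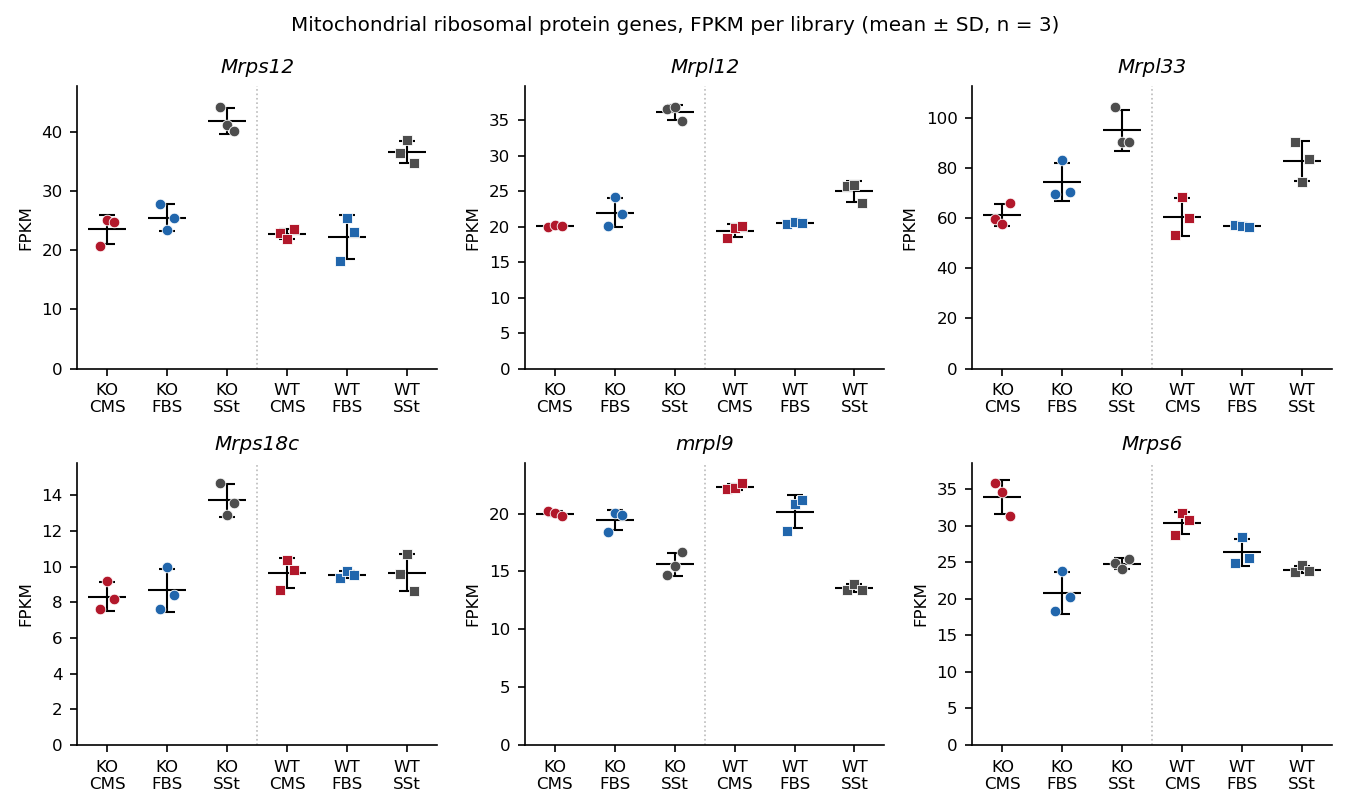
FPKM of 6 mitochondrial members by group, linear axes from 0; points are libraries, lines group means with bars of 1 SD (n = 3). Mrps12 and Mrpl33 are lower in stimulated cells of both genotypes, Mrpl12 and Mrps18c stand highest in KO SSt, mrpl9 is higher in stimulated cells, and Mrps6 is highest on average in KO CMS (31.4 to 35.8 FPKM).

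Whether stretch and serum differed was asked by comparing CMS with FBS. In KO, Rpl10 and 1 of the rows of Rps27a were higher in CMS among the cytosolic members, and Mrps6 among the mitochondrial members, beside 14.8% of all genes (6.73% higher, 8.09% lower). Mrps6 (ENSRNOG00000059381), a small subunit protein, had 35.8, 34.6 and 31.4 FPKM in KO CMS, against 18.3, 23.8 and 20.2 FPKM in KO FBS, with no overlap (log2 difference 0.76, SE 0.092, adjusted p 0.0016). The Rpl10 difference was 0.18 (adjusted p 0.036) and did not pass with library totals (0.12), and with these totals 2 other cytosolic calls were lower in CMS and none was higher. In WT, no cytosolic or mitochondrial member passed (8 and 3 had an unadjusted p below 0.05 in the edgeR test, and DESeq2 called 1 cytosolic member), beside 8.94% of all genes (3.91% higher, 5.03% lower). Leaving out WT FBS replicate 2, WT CMS replicate 1 or WT CMS replicate 2 gave 1 cytosolic call each, and leaving out WT FBS replicate 2 gave 1 mitochondrial call. In KO, leaving out KO CMS replicate 2 or 3 left no cytosolic call, and leaving out KO FBS replicate 2 or 3 left 1.

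Near-identical copies can share reads with their parent genes. Several such rows varied widely between replicates and are uncertain, and the part of shared reads in this was not tested. The ubiquitin fusion gene Rps27a stood on 2 rows, which had 385, 593 and 488 FPKM (ENSRNOG00000004426) and 442, 245 and 349 FPKM (ENSRNOG00000034246) in the same 3 WT SSt libraries, the one high where the other was low. With the rows summed, Rps27a was higher in KO SSt than in WT SSt (0.26, adjusted p 7.0e-05) and did not differ between KO CMS and KO FBS beyond its error (-0.01, adjusted p 0.92). Fau, another ubiquitin-like fusion gene, had 309, 117 and 39.7 FPKM in WT SSt while LOC687780, an unnamed row taken as its copy, had 165, 272 and 362 FPKM. Summed with both rows taken as its copies, Fau was higher in KO SSt (0.19, adjusted p 0.00039), although no comparison called the row of Fau alone. The sum of the stalk gene Rplp2 and the row taken as its copy was higher in KO SSt as well (0.19). Rows were summed by shared orthologue entry, and no sequences were compared.

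Of the unnamed cytosolic copies, 13 of 32 tested were higher in KO SSt than in WT SSt and none was lower, with a median of 0.32, where 24.2% of all genes were higher. Among paralogs, 4 of 9 tested were higher in KO SSt (Rps27l, Rpl36al, Rpl22l1 and Rps18l1) and none was lower. Rpl22l1, the paralog of Rpl22, had 63.2, 56.6 and 59.0 FPKM in KO SSt, against 40.3, 42.02 and 41.6 FPKM in WT SSt (0.46, adjusted p 0.0014). Across the 11 comparisons, 9 cytosolic members (Fau, Rpl7a, Rpl21, Rps12, Rps10l1, Rps19l2, both rows of Rpl35al1 and 1 row of Rps27a) and 7 mitochondrial members (Mrpl1, Mrpl14, Mrpl23, Mrpl34, Mrpl36, Mrps17 and Mrps21) passed in none. How many of all genes passed in none was not counted.

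Genes of the same translation program were counted from lists that held no member, and are to be read beside the shares of all genes: 24.2% higher and 23.2% lower in KO SSt than in WT SSt, 30.8% higher and 30.7% lower in KO CMS, 30.3% and 29.5% in KO FBS, 34.6% and 32.3% in WT CMS and 33.7% and 32.7% in WT FBS, each against SSt. Translation factors and other genes listed as carrying TOP tracts were higher in KO SSt than in WT SSt in 16 of 20 and lower in none (median 0.24). A pyrimidine run stood in the start-site window of 9 of the 16 genes of this list matched by symbol (56.2%). Within the list, Npm1, a nucleolar assembly factor, was higher in KO SSt by 0.52 on the log2 scale. Of the listed genes tested in KO, 5 were higher and 9 lower in CMS and 5 higher and 11 lower in FBS, and in WT, 9 of 19 were higher and 5 lower in CMS and 7 higher and 7 lower in FBS. Mitochondrial translation factors were higher in KO SSt in 10 of 20 and lower in 1. A further 40 mitochondrial ribosomal protein rows outside the KEGG set were tested, of which 8 were higher and none lower in KO SSt, and 17 were lower and 5 higher in KO CMS than in KO SSt, beside 13 lower and 6 higher in WT CMS than in WT SSt. The share higher in KO SSt (20%) was below that of all genes, and the share lower in WT CMS (32.5%) was close to it. These rows, all 42 of them, summed to 793 to 843 FPKM in WT CMS and 772 to 837 FPKM in WT FBS, against 760 to 801 FPKM in WT SSt, ranges that overlapped. Myc, a transcriptional activator of ribosome genes, was higher in KO SSt than in WT SSt (0.54) and fell by 1.15 on the log2 scale in KO CMS and by 0.66 in WT CMS. It was the only gene named from a longer list of growth regulators. As a whole this list summed to 412 to 432 FPKM in KO SSt and 373 to 383 in KO CMS. In WT it summed to 388 to 396 FPKM in SSt and 351 to 360 in CMS. The part of Myc in the ribosomal result was not tested.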

How the data were processed

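The deposited tables, 1 for each genotype, held fragment counts per gene made by the authors, and FPKM computed by the authors from them. Per the submitters' processing notes, reads were handled with Bowtie 0.12.2, and mm10, a mouse build, is given as genome, whereas the gene identifiers are those of rat Ensembl. No other step is given in the sources used here, and no coordinates of the files are printed. Genes with at least 1 FPKM in 3 libraries were tested on the deposited counts with edgeR 4.0.16 (R 4.3.3), TMM scaling and quasi-likelihood F-tests. The 9 libraries of a genotype were fitted together for CMS, FBS and SSt, and all 18 for KO against WT and for the difference of responses. P-values were adjusted over all genes tested. Levels, sums and shares were taken from FPKM, and ratios of shares have error propagated from the SDs. The test was checked on simulated counts. The tables also hold the authors' annotation columns, of which only gene names, KEGG and orthologue entries were used.

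Named members were the 4 highest and 4 lowest core and 4 highest mitochondrial genes by mean FPKM, the largest changes in each comparison, and genes of set roles in the ribosome. The members and lists were chosen with earlier results of these data known. Alternatives were DESeq2 1.42.0, library totals, other or no FPKM filters, limma 3.58.1 on log2 FPKM, a replicate block, leaving out each library, and, chosen after seeing the data, summing rows of 1 orthologue entry and leaving out KO FBS replicate 1. Promoter windows came from RefSeq tables of GRCr8, matched by symbol. Libraries held 56083000 to 71847969 fragments, so counting error is small for all but the lowest genes. Results on 1 member are not reported here, though it is counted in the totals.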

Additional observations from a re-analysis of the deposited data

Results flagged for a closer look

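The response to stimulation differed between the genotypes by a test of the difference itself, the KO response minus the WT response, on the log2 scale (edgeR quasi-likelihood test, Benjamini-Hochberg adjusted). Chance was not assessed beyond that test, and groups of 3 libraries were too small to test for outlying samples.

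For CMS, 36 cytosolic and 13 mitochondrial members passed, beside 44.8% of all 13317 genes (21.6% positive, 23.2% negative). Rps27l (-0.72), Rpl39l (-0.56), Rpl36a (-0.50), Rpl29 (-0.43), Rpl22l1 (-0.39), Rpl3 (-0.38), Rpl35 (-0.35), Rpl5 (-0.28), Rps6 (-0.25) and Rpl11 (-0.21) responded to CMS with a lower change in KO than in WT. Rplp0 was the cytosolic member with a positive difference (0.14), which was 0.00 with library totals. Among mitochondrial members the CMS differences were -0.58 for Mrps18c, -0.53 for Mrps5, -0.53 for Mrps11, -0.43 for Mrpl13, -0.37 for Mrpl19 and -0.34 for Mrpl12.

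For FBS, 30 cytosolic and 8 mitochondrial members passed, all with negative differences, beside 35.7% of all genes (18.5% positive, 17.2% negative). By count, members of either set passed no more often than all genes in CMS or in FBS. What stood out was that positive differences were almost absent. The single values for FBS follow. Differences were -0.51 for Rps27l, -0.38 for Rpl29, -0.31 for Rpl36a, -0.29 for Rps6, -0.27 for Rpl3, -0.26 for Rpl35, -0.245 for Rpl5 and -0.21 for Rpl11, and -0.54 for Mrps18c, -0.43 for Mrpl19, -0.33 for Mrps11, -0.32 for Mrps5, -0.32 for Mrpl12 and -0.27 for Mrpl13. The CMS differences of Rpl22l1 and Mrpl19 and the FBS differences of Mrps11 and Mrps5 did not pass when some single libraries were left out.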

How the results depend on the processing

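No count of members turned its balance of higher and lower calls between the genotypes or between stimulated and starved cells with DESeq2, library totals, limma or the replicate block, except the mitochondrial counts for KO over WT in CMS (3 higher and 4 lower, 4 and 3 with DESeq2) and in FBS (2 and 2, 1 and 0 with the block). Those 2 counts also changed balance without an FPKM filter (3 and 2 in CMS, 2 and 1 in FBS) and without single libraries (6 and 4 in CMS without KO CMS replicate 1, 5 and 1 in FBS without KO FBS replicate 1). No single-gene change recomputed under the alternatives turned its sign, but the call of 1 row of Rps27a for KO CMS over KO FBS did not hold once its rows were summed (-0.01, adjusted p 0.92 in edgeR). With library totals in place of TMM factors the median log2 change of all genes became -0.11 for KO CMS over KO SSt, -0.12 for the FBS and -0.19 for the CMS difference between genotypes. The labels give the same replicate numbers in each group, but the libraries did not pair by number (correlations of deviations -0.137 to 0.146 in KO and -0.0647 to 0.085 in WT, with 2 of 9 KO and 1 of 9 WT libraries closest to their own number), so that a call lost under the block is not read as a weaker effect. What the replicates are, the mouse build named by the submitters and the cell mixture limit all results, and genes of few FPKM had wider errors.

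With library totals, cytosolic calls numbered 52 for KO CMS over KO SSt, 24 for KO FBS over WT FBS, 12 for KO CMS over WT CMS, 56 for the FBS difference and 63 for the CMS difference, and mitochondrial calls 25 for KO SSt over WT SSt, 18 for the FBS difference and 26 for the CMS difference. For KO CMS over KO FBS the 2 cytosolic calls were then both lower. limma on log2(FPKM + 1) gave 53, 25, 12, 56 and 63 cytosolic and 27, 19 and 26 mitochondrial calls in the same order, and 1 cytosolic and 2 mitochondrial calls for KO CMS over KO FBS. With 0.1 as pseudocount the first count was 54 and the others were 25, 12, 56, 63, 27, 19, 26, 1 and 2. Without an FPKM filter, 7 mitochondrial members passed for the CMS difference. DESeq2 called 1 cytosolic member for WT CMS over WT FBS. Rows summed by orthologue entry left 1 cytosolic call for KO CMS over KO FBS. With the replicate block, cytosolic calls were 1 for WT CMS over WT FBS, 0 for KO CMS over KO FBS, 20 for KO FBS over WT FBS and 19 for KO CMS over WT CMS, and mitochondrial calls 1, 3 and 7 for KO over WT in FBS, CMS and SSt. The shares of all genes called under these alternatives were not counted.

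Leaving out 1 library at a time gave, for cytosolic members, 20 to 28 calls for KO CMS and 21 to 32 for KO FBS over SSt, 41 to 48 for WT CMS and 32 to 37 for WT FBS over SSt, 0 to 2 for CMS over FBS in KO and 0 to 1 in WT, 66 to 69, 25 to 46 and 18 to 35 for KO over WT in SSt, FBS and CMS, and 31 to 41 and 22 to 34 for the CMS and FBS differences. For mitochondrial members it gave, in the same order, 23 to 25 and 18 to 21 in KO, 17 to 20 and 15 to 19 in WT, 1 to 2 and 0 to 1 for CMS over FBS, 12 to 16, 3 to 6 and 4 to 10 for KO over WT, and 10 to 13 and 6 to 8 for the differences. Shares of counts in place of FPKM moved the ratio of the summed level for KO CMS over SSt to 0.894 (cytosolic) and 0.764 (mitochondrial) and for WT CMS over SSt to 0.974 (mitochondrial).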
